A study of Mus musculus with 18 samples.

Results

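The SR proteins are the serine and arginine rich splicing factors. The 10 genes covered here, each with a row in the deposited tables, are Srsf1, Srsf2, Srsf3, Srsf4, Srsf5, Srsf6, Srsf7, Srsf9, Srsf10 and Srsf11. They were chosen by name, with earlier results of these data known. They make up 10 of 47311 genes and 72 of 114200 transcripts that could be placed in the mouse annotation. RNA was measured in C2C12, a mouse skeletal muscle cell line, either as undifferentiated myoblasts or as differentiated myotubes. Cells of each stage were treated with a control siRNA (si-Ctrl), with siRNA 1 against Setd2 (si-Setd2#1) or with siRNA 2 (si-Setd2#2), in 3 biological replicates per group and 18 libraries in all. No genetic alteration is named for any group, the siRNAs reduce Setd2 transiently and in part, and all cells had been stretched just before lysis. The labels call the libraries biological replicates without saying whether they came from separate cultures, so the p-values measure the spread between these libraries.

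SR proteins bind pre-mRNA through RNA recognition motifs and contact the splicing machinery through a domain of arginine and serine repeats, which kinases of the SRPK and CLK families phosphorylate. Many of their genes carry a so-called poison exon or a retainable intron that brings an early stop codon into the transcript, so that the RNA is degraded by nonsense-mediated decay, and several SR proteins promote this event in their own transcripts. SETD2 trimethylates lysine 36 of histone H3 along transcribed genes, a mark that has been linked to exon choice through reader proteins that recruit splicing factors.

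Total estimated counts ran from 43.5 to 66.6 megareads per library. Setd2 stood at 99.9 to 121 counts per megaread (CPM, scaled between libraries by the trimmed mean of M values, TMM) in control myoblasts and at 35.1 to 46.1 CPM in the 6 depleted libraries. In myotubes it was at 99.3 to 105 CPM in controls, at 58.15, 37.85 and 38.11 CPM with siRNA 1 and at 33.6 to 38.2 CPM with siRNA 2. Depleted libraries did not overlap the controls in either stage. The 5 myoblast markers examined (Myod1, Myf5, Pax7, Des and Cdh15) were each at 1 TPM or more on average in every group, with summed levels of 820.5 to 1198 TPM in myoblasts and 2587 to 2876 TPM in myotubes, and the summed level of 6 myotube markers was 34.2 to 142 TPM in myoblast libraries and 13250 to 15120 TPM in myotube libraries. Des was the largest part of the myoblast marker sum, at 547 TPM on average in control myoblasts and 2208 TPM in control myotubes. Myod1 and Cdh15 were also higher in control myotubes, while Pax7 (15.2 and 10.7 TPM) and Myf5 (26.7 and 22.2 TPM) were lower. Ribosomal RNA-like sequence made up 1.2% to 1.36% of control myoblast counts and 1.45% to 4.09% of those of depleted myoblasts. Of the markers of other cell types, 1 of 4 adipocyte markers (Cebpa, 4.28 to 7.87 TPM) and 1 of 3 macrophage markers (Cd68, 1.02 to 3.22 TPM) reached a mean of 1 TPM in every group, and 0 of 4 osteoblast and 0 of 3 endothelial markers did in any group. Adipoq, Plin1, Ibsp, Ptprc and Adgre1 were under 0.1 TPM on average in all groups, and 3 of 5 fibroblast markers reached 1 TPM, with summed levels of 23.1 to 70.7 TPM in myoblasts and 133 to 235 TPM in myotubes. TPM, the length-corrected share of a library, is lowered by such sequence, so tests of change used TMM-scaled counts. The column of 1 myoblast library (siRNA 2, replicate 3) names SETD3 where its label names SETD2, and the name of 1 myotube control (replicate 3) holds NT_2 where the other controls hold NT_1. Most counts of SR calls are given without those libraries too. Those of transcripts on differentiation and of the other gene lists are not. Library names also carry a prefix of unstated meaning (C14 or D2 in myoblasts, C13 or D1 in myotubes), split 1 to 2 or 2 to 1 within each group. Deviations from the group means went together within a prefix: all 13 same-prefix pairs of libraries from different groups correlated above 0 in each stage (0.083 to 0.447 in myoblasts, 0.075 to 0.24 in myotubes), and 0 of 14 other pairs did. Deviations within a group sum to 0 and each library enters several pairs, so these counts of pairs are not separate observations. The tests below have no prefix term, and counts with one are given where they differ by over 1.5 times.

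Of the 72 transcripts, 26 were annotated as protein coding and 46 as non-coding: 12 as targets of nonsense-mediated decay, 22 as retained introns and 12 as processed transcripts without an open reading frame. Srsf11 had 19 transcripts, Srsf5 12, Srsf10 10, Srsf1 7, Srsf2 6, Srsf3 5, Srsf4, Srsf6 and Srsf9 4 each, and Srsf7 1, a coding transcript, so Srsf7 has no non-coding share here. The GENCODE M21 annotation lists more for some of these genes: 8 for Srsf7, 10 for Srsf3 and 5 for Srsf9. The levels and shares of these genes therefore cover only the transcripts that were quantified. In Srsf3, Srsf4 and Srsf6, whose decay transcripts recur below, the decay transcripts end at another stop codon than the leading coding transcript. This is not so in Srsf2, where decay transcripts Srsf2-202 and Srsf2-204 use the stop of coding Srsf2-201 (chromosome 11, position 116852030, minus strand). In each window below, read from the GENCODE M21 transcripts of GRCm38 (mm10) in the direction of the transcript, the stop codon is in capitals.
Srsf3-201, decay: ctcaccaccctcTGAatctgcatt
Srsf3-202, coding: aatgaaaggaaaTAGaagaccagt
Srsf6-201, decay: gccttttgccatTAGacgcagggt
Srsf6-203, coding: agttccagagatTAAccctgacct
Srsf4-204, decay: catgccccagctTAGagtgcttca
Srsf4-202, coding: cactcaaggtccTAActggctctg
The stop of Srsf3-201 begins at position 29039485 of chromosome 17 (plus strand), inside an added exon of 456 bases (chr17:29039454-29039909), and lies 548 bases before the last exon junction of the transcript. That of Srsf6-201 begins at position 162932964 of chromosome 2 (plus strand), in an added exon of 268 bases (chr2:162932815-162933082), 534 bases before the last junction. The stop of Srsf4-204 (chromosome 4, position 131884388, plus strand) lies 706 bases before the last junction. In the coding transcripts Srsf3-202, Srsf6-203 and Srsf4-202 the stop follows the last junction. The transcript lengths in the tables equal those of M21 for 66 of the 72; Srsf3-201 (1919 bases in the tables, 2594 in M21), Srsf3-202 (2566 and 2618), Srsf3-205 (910 and 2110) and Srsf3-204 (3986 and 4010) are among those that differ, so the ends of the models quantified for Srsf3 are not those drawn.

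Other transcripts that recur below hold an intron or an added exon. Srsf6-204 keeps an intron of 1283 bases (chr2:162932143-162933425, plus strand) that spans the added exon of Srsf6-201, and Srsf2-203 keeps one of 1059 bases (chr11:116850962-116852020, minus strand). In the windows at the start of these introns, the GT of the unused splice site is in capitals; in those at the end, the AG.
Srsf6-204, intron start: acggaagccgcaGTgagtccttac
Srsf6-204, intron end: catgtgataaAGgtggtggaggtg
Srsf2-203, intron start: cctaagaaaatgGTaatgtctgcg
Srsf2-203, intron end: tttcaaacctAGatgaatcggcaa
Srsf10-201, a processed transcript, holds an added exon of 360 bases (chr4:135858842-135859201, plus strand), whose first and last bases are in capitals in the next windows.
Srsf10-201, start of the added exon: tcaagtttttatAATGTAAAGCTG
Srsf10-201, end of the added exon: GTCATACCTGATacgctttacata

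**Figure D1:**
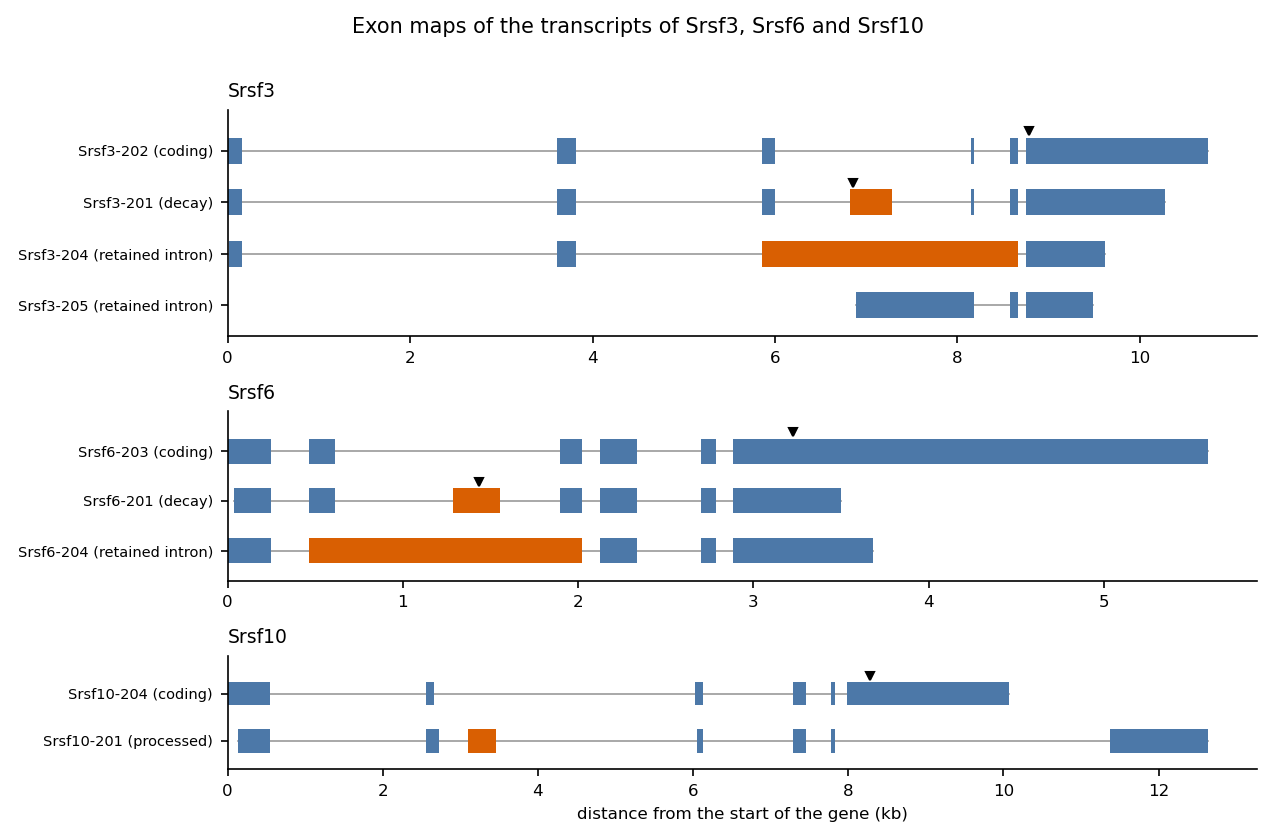
Exons of the transcripts of Srsf3, Srsf6 and Srsf10 named in the text, drawn to scale from GENCODE M21 as distance in kb from the start of each gene; orange boxes are the added exons or the exons that include a retained intron, blue boxes the other exons, and triangles the annotated stop codons. The stops of Srsf3-201 and Srsf6-201 lie within their added exons, upstream of the stops of the coding transcripts.

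Control myoblasts held the SR genes at 87.6 to 425 TPM, a scale that corrects for length and so allows genes to be compared. Srsf2, a nuclear SR protein that also acts in transcription elongation, was at 419.1, 431.2 and 424.5 TPM, and Srsf3, the smallest SR protein, at 404.1, 427.7 and 419.1 TPM. Their ranges overlapped. Srsf1, an activator of exon inclusion that shuttles to the cytoplasm, followed at 390 ± 9.43 TPM (SD, n = 3), and then Srsf5 at 309 ± 10.2 TPM and Srsf6 at 215 ± 6.92 TPM. Srsf10, known as a repressor of splicing when dephosphorylated, stood at 166 ± 8.78 TPM, the divergent SR protein gene Srsf11 at 162 ± 5.67 TPM and Srsf9 at 156 ± 4.03 TPM, and each of these overlapped the next. Srsf7, which binds RNA with a recognition motif and a zinc knuckle, was at 117 ± 1.71 TPM and Srsf4 lowest at 87.6 ± 1.21 TPM. In control myotubes the order began with Srsf5 (346 ± 12.5 TPM), Srsf3 (225 ± 5.15 TPM), Srsf2 (199 ± 12.7 TPM) and Srsf1 (180 ± 4.92 TPM). It ended with Srsf4 (52.6 ± 2.1 TPM) and Srsf7 (45.9 ± 1.44 TPM), and no neighbours in that order overlapped. The level of Srsf7 covers a coding transcript only, while those of the other genes include non-coding transcripts. On coding transcripts alone, control myotubes held Srsf7 (44.91 to 47.58 TPM) above Srsf4 (41.59 to 43.99 TPM).

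The SR genes as a family were lower in control myotubes than in control myoblasts, and Srsf5 alone went the other way. Of the 10 genes, 9 were lower and 1 higher, where 38.1% of all 16930 genes tested were lower and 39.4% higher. The members' median log2 change was -0.88, against 0.00 over all genes tested. Their summed level fell from 2400, 2456 and 2478 TPM to 1446, 1464 and 1529 TPM. In bulk RNA, fewer cells of a type and less RNA per cell cannot be told apart.

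Among the SR proteins with a second, atypical RNA recognition motif, Srsf9 changed most. It stood at 152, 157.1 and 160 TPM in control myoblasts and at 55.24, 60.2 and 61.86 TPM in control myotubes, with no overlap, and its log2 change was -1.54 (SE 0.051, adjusted p = 2.71e-16). Srsf1 fell from 379.5, 395.7 and 396 TPM to 179.6, 175.1 and 184.9 TPM, a log2 change of -1.13 (SE 0.041). Srsf4 and Srsf6, which share a long arginine and serine rich tail, had log2 changes of -0.78 (SE 0.038) and -0.55 (SE 0.04). Srsf5, a gene of the same subgroup with a shorter tail, was at 318.9, 298.5 and 309.3 TPM in myoblasts and at 339.9, 337.7 and 360.4 TPM in myotubes. Each myotube library was above each myoblast library, and the log2 change was 0.18 (SE 0.043, adjusted p = 0.000878).

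Among those with a single recognition motif, Srsf7 went from 115, 117 and 118.4 TPM to 44.91, 45.31 and 47.58 TPM, and its log2 change was -1.37 (SE 0.039, adjusted p = 3.41e-17). These values are of its only quantified transcript, a coding one. Srsf2 had a log2 change of -1.14 (SE 0.039), and its myotube level of 189.2 to 213.1 TPM was below each myoblast library. The change of Srsf3, which with Srsf7 is known to link splicing to the export of mRNA, was -0.81 (SE 0.037). Srsf10 changed by -0.95 (SE 0.043) and Srsf11, at 155.7 to 166.5 TPM in myoblasts and 130.9 to 141.7 TPM in myotubes, by -0.36 (SE 0.044). Each of the 10 calls held when any control library was left out, the NT_2 library among them. Stage was not separate from the deposited table, of which there was 1 per stage, nor from the division of the cells: 3 of 3 markers of dividing cells (Mki67, Top2a and Ccnb1), summed, were at 750 to 757 TPM in control myoblasts and at 100 to 112 TPM in control myotubes. Their part in the fall of the SR genes was not tested.

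**Figure D2:**
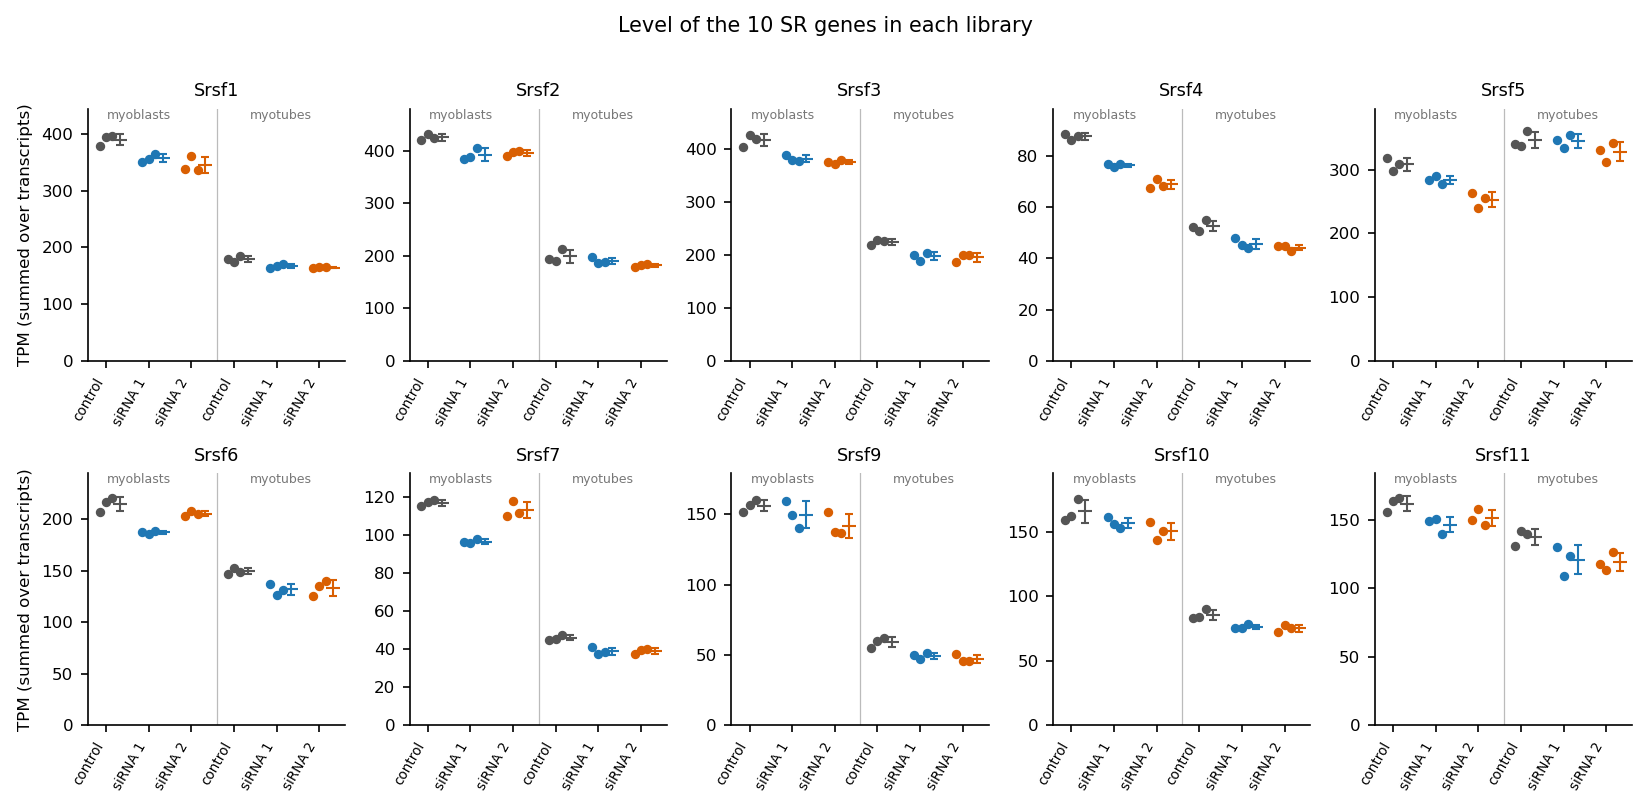
TPM of each SR gene, summed over its transcripts, in the 18 libraries; points are libraries, horizontal marks with bars are the mean and SD of 3 libraries, and each panel has its own axis from 0. In 9 panels the myotube libraries lie below all myoblast libraries of the same treatment, and in the Srsf5 panel they lie above.

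The decrease lay mainly in the coding transcripts, and the non-coding share of the family rose. Summed over the 10 genes, coding transcripts went from 1738 ± 33.1 TPM to 871 ± 43.7 TPM (SD, n = 3) and non-coding transcripts from 706 ± 9.01 TPM to 609 ± 4.77 TPM, so that the non-coding share went from 29.1%, 28.7% and 28.9% to 42.4%, 41.2% and 39.9%. Tested gene by gene as the balance of non-coding against coding estimated counts, the share rose in 8 of 9 members and fell in 0, where 5.62% of 6727 genes tested rose and 5.6% fell. The median log2 change of this balance was 0.73 in the members and -0.01 over all genes tested. Without the NT_2 library the count was 7.

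Srsf3 had the highest non-coding share among the transcripts quantified. It was 62.3%, 62.2% and 60.3% of the TPM of the gene in control myoblasts and 75.1%, 74.8% and 73.6% in control myotubes, without overlap, and the log2 change of the balance was 1.21 (adjusted p = 5.26e-10). The poison exon transcript Srsf3-201 by itself held 19.1% ± 0.489 of the TPM of the gene in control myoblasts and 27.5% ± 0.951 in control myotubes. Its own level went down, from 79.52, 80.16 and 79.48 TPM to 57.68, 64 and 63.53 TPM (log2 change -0.34, SE 0.046, adjusted p = 1.75e-05), while coding Srsf3-202 went from 152.5, 161.6 and 166.4 TPM to 54.41, 57.5 and 60.07 TPM (-1.46, SE 0.051, adjusted p = 4.26e-12). The leading non-coding transcript, Srsf3-205, fell by 1.02 on the log2 scale (SE 0.068), and Srsf3-204, which keeps the introns on either side of a short exon, rose by 0.46 (SE 0.065), from 22.11 to 24.38 TPM up to 30.85 to 32.32 TPM. Srsf3-201 and Srsf3-204 were singled out after their values were seen. The processed pseudogenes Gm9761 (9.59 TPM on average) and Gm7083 and the coding gene Gm12355 have 96.9% to 99.6% identity to Srsf3 over 450 bases or more and can share its reads.

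In Srsf11 the non-coding share was 47.3%, 43.5% and 45.4% in control myoblasts and 63.6%, 60.7% and 62.6% in control myotubes, and nearly all of it, 42.7% and 59.3% of the gene, was in retained intron transcripts. The balance rose by 1.01 on the log2 scale (adjusted p = 5.29e-08). The leading coding transcript, Srsf11-202, fell by 0.74 (SE 0.046), while Srsf11-208, a retained intron transcript, rose by 0.30 (SE 0.08, adjusted p = 0.00578). In Srsf2 the share was 7.25%, 7.58% and 8.57%, then 16.9%, 16.3% and 15.5% (1.24, adjusted p = 4.84e-14). There the retained intron transcript Srsf2-203 was at 28.08, 29.8 and 29.51 TPM in myoblasts and 30.34, 28.12 and 29.64 TPM in myotubes, overlapping groups with a log2 change of 0.04 (SE 0.078, adjusted p = 0.743). Coding Srsf2-201 went from 385.2 to 392.4 TPM down to 153.6 to 172.4 TPM (-1.25, SE 0.041). The exons of Srsf2 overlap those of Mettl23 and Mfsd11 on the other strand, and no source used here says whether strand was kept, so their reads cannot be told apart.

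Srsf1 had a non-coding share of 12.1% to 14.1% in control myoblasts and 18.6% to 23.4% in control myotubes (0.73, adjusted p = 1.31e-05). Its coding Srsf1-201 fell by 1.27 on the log2 scale (SE 0.051) and its leading non-coding transcript, the retained intron transcript Srsf1-203, by 0.70 (SE 0.144). In Srsf5, the gene that rose, the share went from 32.8% to 35.6% up to 43.5% to 45.7% (0.62, adjusted p = 0.000811). Coding Srsf5-201 was at 142.5, 136.9 and 138.4 TPM and then at 122.3, 130.9 and 134.1 TPM (-0.08, SE 0.049, adjusted p = 0.186), and Srsf5-212, which keeps an intron of 1229 bases, rose from 55, 46.68 and 49.18 TPM to 75.41, 77.29 and 75.45 TPM (0.62, SE 0.113, adjusted p = 0.000335). The rise of Srsf5 was thus measured in transcripts other than its leading coding transcript. In Srsf6 the share was 48.8% to 50.9% and then 54.2% to 56.2% (0.43, adjusted p = 0.00058), with Srsf6-203 (-0.68, SE 0.046) and the decay transcript Srsf6-201 (-0.59, SE 0.084) both lower and the retained intron transcript Srsf6-204 at 0.04 (SE 0.058, adjusted p = 0.613).

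The remaining calls were less firm. Srsf9 held 5.88%, 8.03% and 12.2% of its TPM in non-coding transcripts in control myoblasts and 26.6%, 23.3% and 12.9% in control myotubes (1.69, adjusted p = 0.0114), and its call ended without either of the first 2 control libraries of either stage (adjusted p 0.0507 to 0.0848). Srsf10 held 29.7% to 34.5% and 31.9% to 35.1%, overlapping groups on the TPM scale, with a balance of 0.41 on the count scale (adjusted p = 0.0191) that lost its call without myoblast control 2 or myotube control 2 or 3 (adjusted p 0.0503 to 0.141) and with limma on TPM (adjusted p = 0.701, and 0.15 for Srsf9). The balance of Srsf4, where the share was 15.3% to 16.3% and then 18% to 19.9%, did not pass the test (0.17, adjusted p = 0.648), nor did the decay transcript Srsf4-204 (-0.26, adjusted p = 0.183).

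Over single transcripts, 33 of the 61 members tested changed, 24 lower and 9 higher, where 21.4% and 23.6% of 49510 transcripts did. Of 24 coding transcripts 17 were called, 16 lower and 1 higher; of 9 decay transcripts 3 were lower and 0 higher; of 18 retained intron transcripts 3 were lower and 5 higher; and of 10 processed transcripts 2 were lower and 3 higher. Shares over all transcripts of each type were not computed, so the counts by type have no background of their own type and are given as description only. The 61 are those of 72 that passed the filter on low counts. The estimated counts of transcripts that share exons carry an assignment error that the tables do not give.

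**Figure D3:**
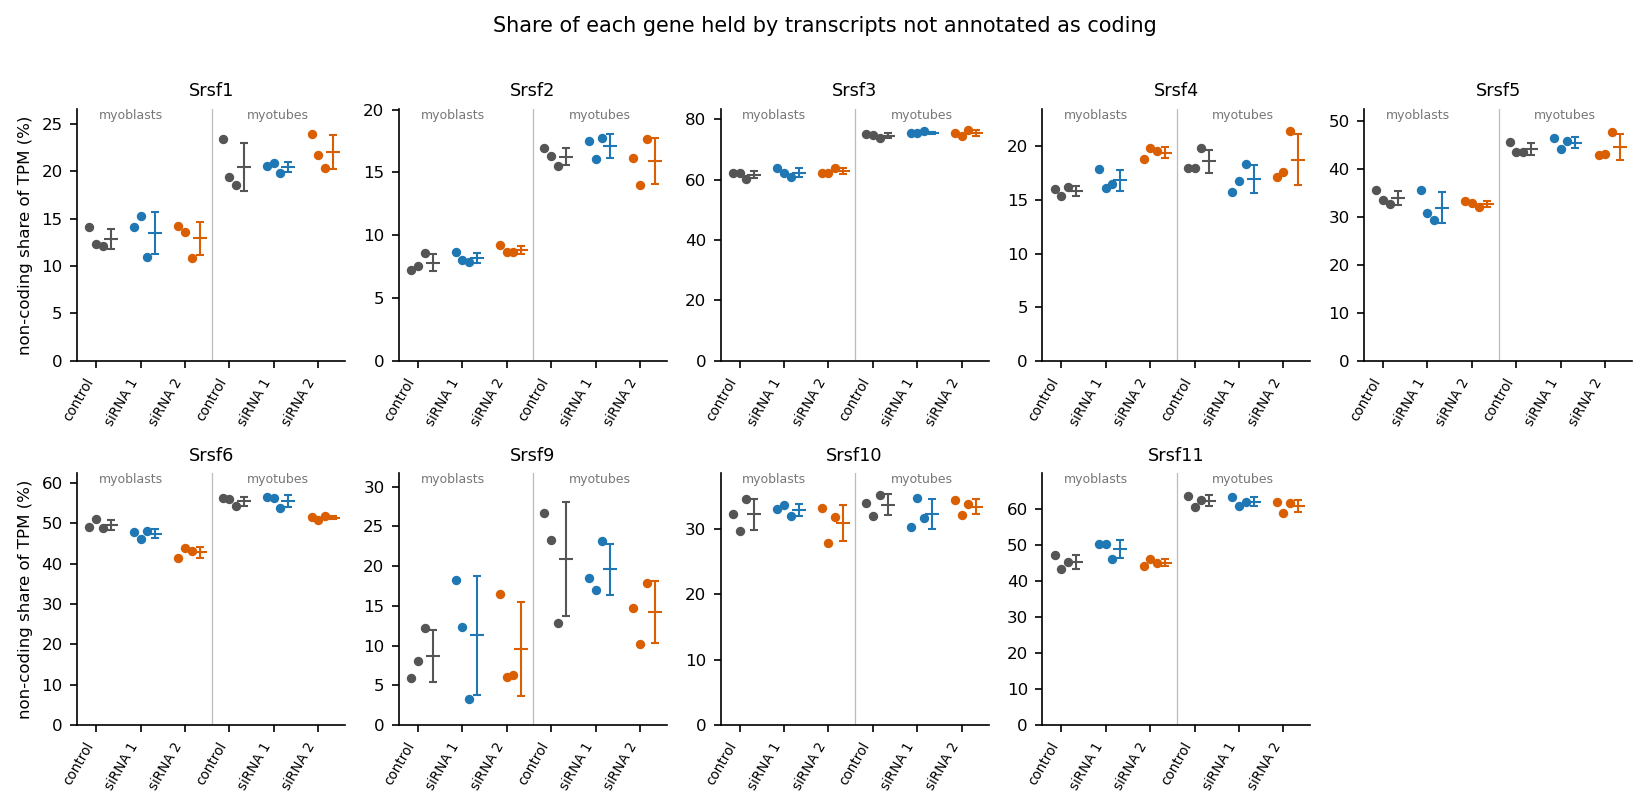
Share of the TPM of each SR gene held by transcripts not annotated as coding, in percent, in the 18 libraries (Srsf7 had no such transcript among those quantified). Points are libraries and marks with bars the mean and SD of 3 libraries. Control myotubes lie above control myoblasts without overlap in each panel but that of Srsf10, and the Srsf6 panel shows the lower share with siRNA 2 in both stages.

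After Setd2 depletion in myoblasts the SR genes called were all lower, by small amounts, and the siRNAs did not call the same set. With siRNA 1, 3 of 10 were lower and 0 higher, where 8.44% of 15586 genes were lower and 11.6% higher; with siRNA 2, 6 were lower and 0 higher, against 16.5% and 17.1%. The members' median log2 change was -0.07 and -0.11, against 0.01 and 0.00 over all genes. Without the SETD3 library the counts were 3 and 6, and without myoblast control 1 the siRNA 1 count was 6. With the name prefix as a covariate the counts were 5 and 7.

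Srsf4 was the member called with each siRNA. It was at 97.56, 96.84 and 98.54 CPM in controls, at 88.01, 87.4 and 90.5 CPM with siRNA 1 and at 76.41, 78.87 and 78.64 CPM with siRNA 2, 3 groups that did not overlap. Its log2 change was -0.14 with siRNA 1 (SE 0.029, adjusted p = 0.00458) and -0.33 with siRNA 2 (SE 0.029, adjusted p = 3.65e-06). Libraries whose names begin with C14 gave -0.15 and -0.35, and those that begin with D2 gave -0.11 and -0.31; both prefixes gave a lower level. Its leading coding transcript Srsf4-202 went from 73.09 to 74.5 TPM in controls to 62.99 to 64.17 TPM with siRNA 1 (-0.15, SE 0.026, adjusted p = 0.0221) and 54.79 to 56.84 TPM with siRNA 2 (-0.36, SE 0.026, adjusted p = 8.95e-05). The siRNA 1 call of that transcript ended without any of 6 of the 9 libraries (adjusted p 0.0535 to 0.123): the 3 controls, siRNA 1 library 1 or 2, or siRNA 2 library 2.

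Srsf7 was lower with siRNA 1 alone. It was at 135.6, 138 and 139.4 CPM in controls, at 118.4, 117.7 and 122.1 CPM with siRNA 1 (log2 change -0.21, SE 0.03, adjusted p = 0.00044) and at 133.4, 140.6 and 137.2 CPM with siRNA 2 (-0.01, SE 0.03, adjusted p = 0.899), and the siRNAs differed by 0.20 (SE 0.03, adjusted p = 0.000387). Srsf6 was also lowest with siRNA 1, at 308.9 to 327.5 CPM in controls, 292.8 to 295.2 CPM with siRNA 1 (-0.11, SE 0.027, adjusted p = 0.0135) and 318.3 to 326.4 CPM with siRNA 2 (0.02, SE 0.027, adjusted p = 0.668), a difference of 0.13 between siRNAs (SE 0.027, adjusted p = 0.00417). The call of Srsf6 ended without myoblast control 3 (adjusted p = 0.0702) or the first siRNA 1 library (adjusted p = 0.0601).

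Srsf5 showed the reverse. It was at 261, 243.4 and 252.3 CPM in controls, at 241.7, 249 and 234.9 CPM with siRNA 1 (-0.06, SE 0.046, adjusted p = 0.408) and at 224.7, 196.3 and 212.1 CPM with siRNA 2 (-0.26, SE 0.046, adjusted p = 0.00102). All siRNA 2 libraries lay below all others, and the siRNAs differed by -0.20 (SE 0.046, adjusted p = 0.00799). Its coding transcript Srsf5-201 went from 136.9 to 142.5 TPM in controls to 102.4 to 112.9 TPM with siRNA 2 (-0.33, SE 0.044, adjusted p = 0.00244). Srsf1, Srsf3, Srsf9 and Srsf11 fell with siRNA 2 by 0.11 to 0.12 on the log2 scale (SE 0.028 to 0.032, adjusted p 0.00884 to 0.0131). Of these, Srsf1 lost its call without myoblast control 2 or 3 (adjusted p 0.0568 and 0.063), and Srsf3 without either of these or the second siRNA 2 library (adjusted p 0.0523 to 0.0609). Srsf2 (-0.05 and -0.07) and Srsf10 (0.01 and -0.02) passed with neither siRNA. In all, 5 members differed between the siRNAs in myoblasts, Srsf6 and Srsf7 higher and Srsf4, Srsf5 and Srsf9 lower with siRNA 2, where 12.1% of genes were higher and 14.3% lower.

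**Figure D4:**
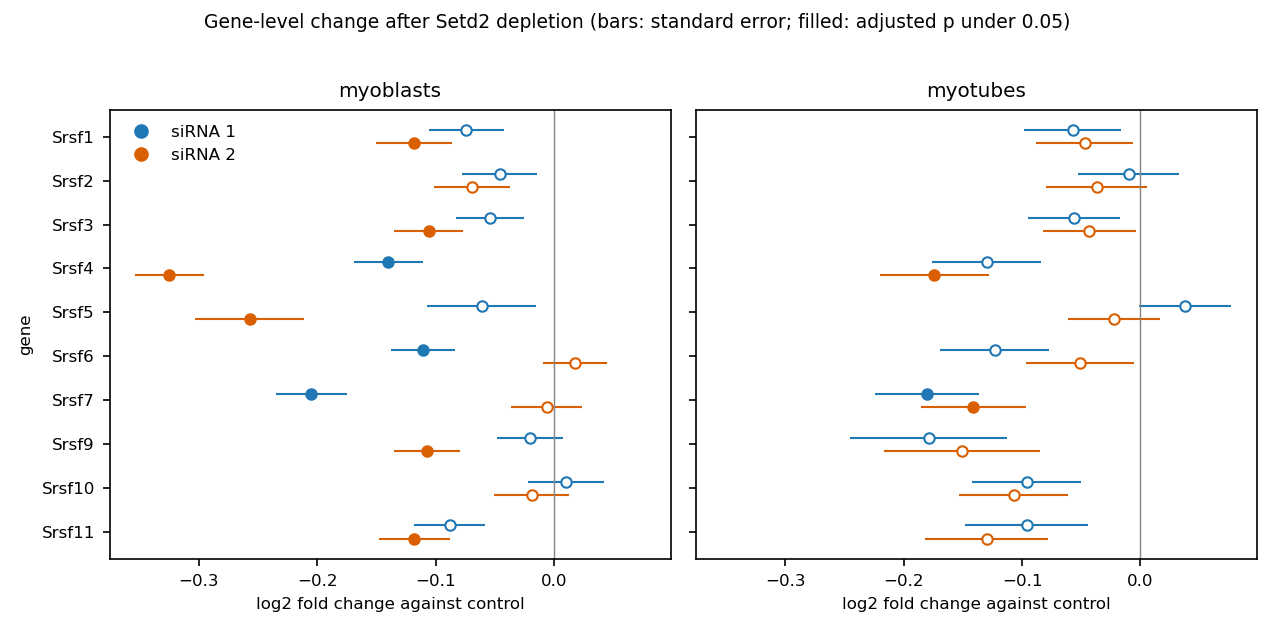
Log2 fold change of each SR gene against the control of its stage (TMM-scaled counts), with siRNA 1 in blue and siRNA 2 in orange; bars are standard errors, and filled points passed an adjusted p under 0.05. Filled points all lie below 0, 9 of them in myoblasts and 3 in myotubes, and estimates run from -0.33 to 0.04.

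The non-coding share of the family after depletion was 29.2% ± 1.88 with siRNA 1 and 28.6% ± 0.582 with siRNA 2 in myoblasts, against 28.9% ± 0.242 in controls (SD, n = 3). Few single transcripts were called after depletion in myoblasts, some of them in Srsf6 and Srsf10. The siRNA 1 calls of Srsf6-204 and Srsf10-201 hung on single libraries. With siRNA 1, 4 of 60 member transcripts were called (2.86% of 44205 transcripts), and with siRNA 2, 7 (8.23%). Without the SETD3 library these counts were 2 and 6; the siRNA 1 count was 1 to 3 without each other library in turn. With the prefix as a covariate they were 5 and 12, and Srsf10-201 was not called with siRNA 1. Srsf6-204, Srsf4-202 and Srsf10-201 were called in the same direction with each.

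The retained intron transcript Srsf6-204 was at 37.8, 37.31 and 37.49 TPM in controls, at 31.83, 31.95 and 28.62 TPM with siRNA 1 and at 26.7, 27.33 and 28.34 TPM with siRNA 2. Every depleted library lay below every control, with a log2 change of -0.22 for siRNA 1 (SE 0.046, adjusted p = 0.0464) and -0.41 for siRNA 2 (SE 0.046, adjusted p = 0.00103). Coding Srsf6-203 was at 105.3, 106 and 112.7 TPM in controls, at 97.47, 100 and 97.4 TPM with siRNA 1 (-0.07, SE 0.032, adjusted p = 0.426) and at 118.9, 116.6 and 116.2 TPM with siRNA 2 (0.17, SE 0.032, adjusted p = 0.0164). The decay transcript Srsf6-201 was not called with either siRNA. The non-coding share of Srsf6 thus went from 49.1%, 50.9% and 48.8% in controls to 41.3%, 43.8% and 43.3% with siRNA 2, and this balance was the only member call, with a log2 change of -0.44 (adjusted p = 0.00162; 0.4% of 6248 genes). The difference in share was -6.82 percentage points, -7.81 among C14 libraries and -6.32 among D2 libraries. The call held when any 1 of the 9 libraries was left out, but not with limma on TPM (adjusted p = 0.407) or with the decay transcript alone counted as non-coding. With siRNA 1 the share was 47.9%, 46.1% and 48.2%, below the controls without overlap, and did not pass (-0.13, adjusted p = 1). The siRNA 1 call of Srsf6-204 ended without any 1 of the 9 libraries (adjusted p 0.0562 to 0.15), and the siRNA 2 call of Srsf6-203 without myoblast control 1 or 2 or siRNA 2 library 1 or 3 (adjusted p 0.0553 to 0.0735).

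Srsf10-201, the processed transcript with the added exon, was at 2.83, 2.3 and 3.04 TPM in controls, at 3.71, 6.07 and 5.4 TPM with siRNA 1 and at 7.44, 6.03 and 5.65 TPM with siRNA 2. Each depleted library was above each control. Its log2 change was 0.96 with siRNA 1 (SE 0.204, adjusted p = 0.0488) and 1.27 with siRNA 2 (SE 0.205, adjusted p = 0.00642), and the siRNA 1 call ended without any of 8 of the 9 libraries, all but the first of siRNA 1 (adjusted p 0.0546 to 0.179). Coding Srsf10-203 and Srsf10-205 were lower with siRNA 2. Srsf10-203 went from 17.72, 21.28 and 20.61 TPM to 9.1, 11.61 and 10.78 TPM (-0.88, SE 0.147, adjusted p = 0.00788), Srsf10-205 changed by -0.33 (SE 0.067, adjusted p = 0.0196), and both were singled out after their values were seen. The leading coding transcript Srsf10-204 was at 49.04 to 58.28 TPM in controls and at 54.84 to 60.79 TPM with siRNA 2. The level of Srsf10 as a whole did not pass the test with either siRNA. The balance of non-coding against coding counts was at 0.40 with siRNA 2, with adjusted p = 0.0668 in the main test and 0.0286 in a gene-level F test (which called 1.55% of genes), while the TPM share was 29.7% to 34.5% in controls and 27.8% to 33.1% with siRNA 2. In a share of TPM, short transcripts weigh more than in counts: Srsf10-201 is 2493 bases long and Srsf10-209, a processed transcript of 394 bases singled out after its values were seen, was at 13.28 to 21.34 TPM in controls and 4.22 to 10.67 TPM with siRNA 2 (adjusted p = 0.081). Processed pseudogenes of Srsf10, Gm5446 and Gm9134, were at 1.17 and 1.04 TPM on average.

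**Figure D5:**
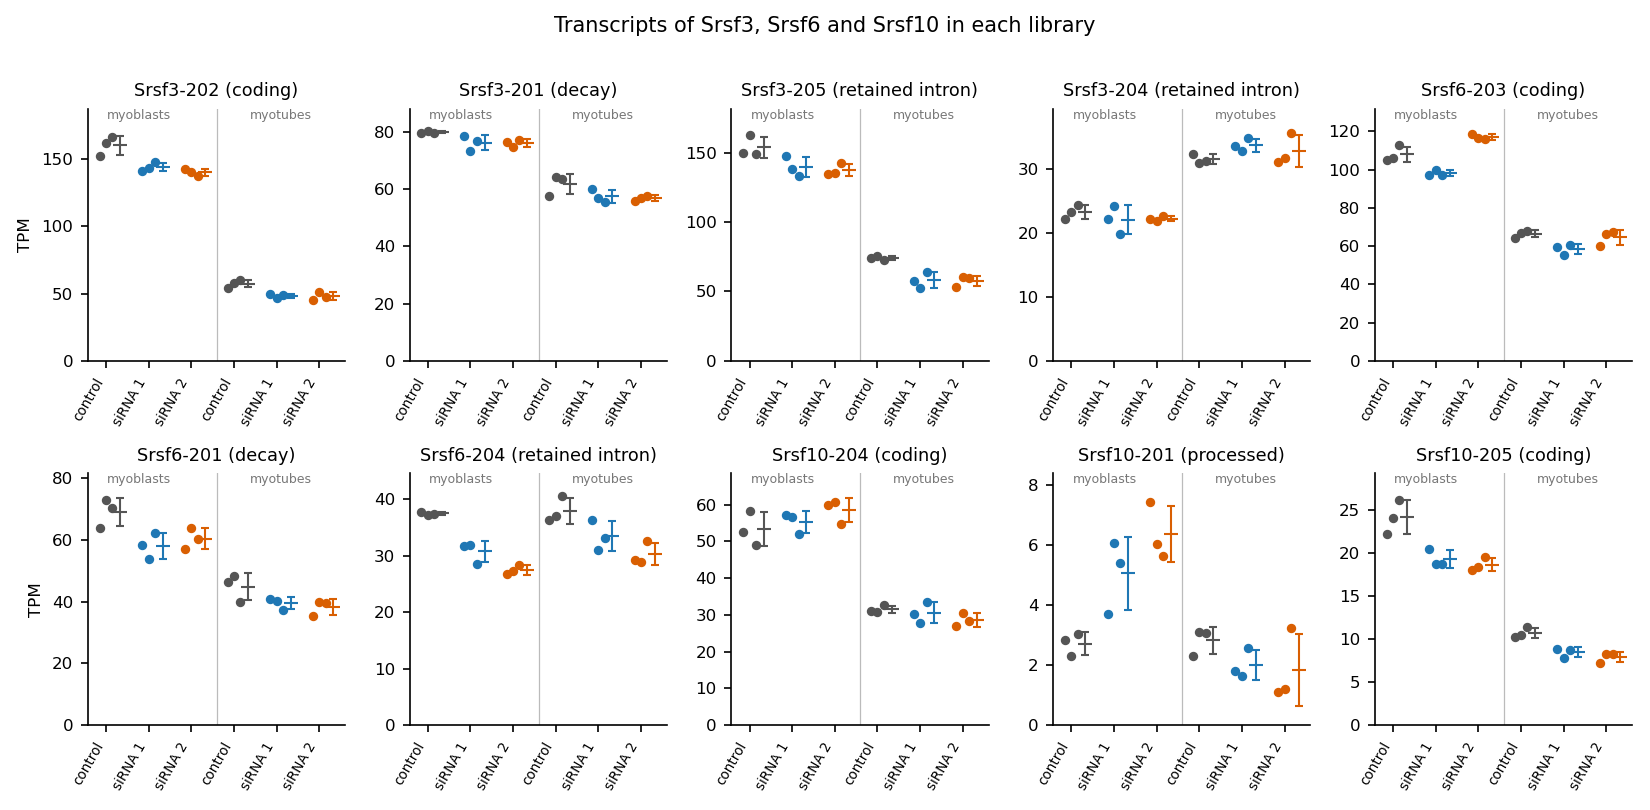
TPM of 10 transcripts of Srsf3, Srsf6 and Srsf10 in the 18 libraries, with points for libraries and marks with bars for the mean and SD of 3; the annotated type is in brackets, and each panel has its own axis from 0. Srsf6-204 is lower and Srsf10-201 higher in every depleted myoblast library than in the myoblast controls.

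In myotubes, Srsf7 and Srsf4 were the SR genes that passed the test after depletion, both lower, and the counts were near the share over all genes. With siRNA 1, 1 of 10 was called lower (9.57% of 16097 genes were lower), and with siRNA 2, 2 (16.4%). Srsf7 was called with each: it was at 50.18, 50.36 and 52.31 CPM in controls, at 47.04, 44.03 and 43.83 CPM with siRNA 1 and at 43.59, 47.41 and 47.58 CPM with siRNA 2. All 6 depleted libraries were below the controls, with a log2 change of -0.18 for siRNA 1 (SE 0.044, adjusted p = 0.0132) and -0.14 for siRNA 2 (SE 0.044, adjusted p = 0.0289). Srsf4 was at 52.46 to 55.57 CPM in controls, at 46.79 to 52.05 CPM with siRNA 1 (-0.13, SE 0.046, adjusted p = 0.0624) and at 46.19 to 49.65 CPM with siRNA 2 (-0.17, SE 0.046, adjusted p = 0.0114). With limma on TPM the counts were 6 and 8, and with the prefix as a covariate 2 and 3. Leaving out single libraries moved the siRNA 1 count between 0 and 4, the latter without the first siRNA 2 library. Without the NT_2 control the counts were 0 and 1, and the adjusted p of Srsf7 was 0.0569 and 0.111. Its siRNA 1 call also ended without the second or the third siRNA 1 library (adjusted p up to 0.0804), its siRNA 2 call without any of 8 of the 9 libraries (adjusted p 0.0506 to 0.111), and the call of Srsf4 without the third siRNA 2 library (adjusted p = 0.0717).

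The other 8 members had log2 estimates between -0.18 and 0.04 in myotubes, and 9 of 10 members with siRNA 1 and 10 of 10 with siRNA 2 had an estimate below 0. The share of all genes with an estimate below 0 was not computed, so these counts are description only. The members' median log2 change was -0.096 with siRNA 1 and -0.079 with siRNA 2, against -0.0009 and -0.0105 over all genes tested. Markers of dividing cells were lower in the same myotube libraries, with summed levels of 100 to 112 TPM in controls, 64.9 to 70.7 TPM with siRNA 1 and 68.3 to 71.4 TPM with siRNA 2, 3 of 3 called lower with each. In depleted myoblasts their sum was 667 to 711 TPM with siRNA 1 and 744 to 799 TPM with siRNA 2. The part of these cells in the SR gene levels was not tested. No member passed the test of siRNA 2 against siRNA 1 in myotubes (edgeR, 0 of 10 at an adjusted p under 0.05 and 0 at an unadjusted p under 0.05), where 17.1% of genes differed.

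Of member transcripts in myotubes, edgeR called 0 of 58 with siRNA 1 (2.69% of 44552 transcripts; 6 at an unadjusted p under 0.05, and 0 with limma on TPM) and 1 with siRNA 2 (6.42%), coding Srsf10-205. It was at 10.28, 10.49 and 11.35 TPM in controls, 8.87, 7.79 and 8.67 TPM with siRNA 1 (-0.27, SE 0.075, adjusted p = 0.109) and 7.22, 8.22 and 8.21 TPM with siRNA 2 (-0.33, SE 0.075, adjusted p = 0.0367). The siRNA 2 call was lost without any of 8 of the 9 libraries, the NT_2 control among them. Srsf6-204 was at 36.29, 37.04 and 40.64 TPM in controls and at 29.32, 28.99 and 32.66 TPM with siRNA 2 (-0.22, SE 0.065, adjusted p = 0.1), and Srsf10-201 at 2.32, 3.12 and 3.07 TPM and at 1.1, 1.22 and 3.22 TPM (-0.51, SE 0.404, adjusted p = 0.589). Whether the depletion change of a transcript differed between the stages was not tested. The non-coding share of Srsf6 was 56.2%, 55.9% and 54.2% in myotube controls and 51.6%, 50.9% and 51.7% with siRNA 2, without overlap, with differences of -3.62 and -4.62 points within the name prefixes C13 and D1, and it did not pass (-0.25, adjusted p = 0.645). For the shares, edgeR called 0 of 9 members with siRNA 1 in myoblasts (0.064% of genes, 1 member at an unadjusted p under 0.05) and in myotubes 0 with siRNA 1 (0.0474%, 0 unadjusted) and 0 with siRNA 2 (0.189%, 1 unadjusted). With limma on TPM, each of these 3 counts was 0.

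A further test asked whether the average change over both siRNAs was larger or smaller in myotubes than in myoblasts, and it called 1 of 10 members, where 23.4% of 16930 genes were called. This was Srsf5, with a difference of 0.17 (SE 0.053, adjusted p = 0.0263), from myoblast changes of -0.06 and -0.26 and myotube changes of 0.04 and -0.02. The call ended without any of 7 of the 18 libraries, among them the SETD3 library (adjusted p = 0.0547) and, with the highest adjusted p of 0.0948, the first myotube control. Srsf7 and Srsf4 did not pass this test (-0.05 and 0.08, adjusted p = 0.489 and 0.232). For the non-coding shares it called 0 of 9 (0.0446% of genes; 1 at an unadjusted p under 0.05, and 0 with limma on TPM).

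Other genes of the same processes were taken from fixed lists, chosen with earlier results of these data known. Over all genes, 38.1% were lower and 39.4% higher on differentiation; with siRNA 1 and siRNA 2, 8.44% and 16.5% were lower in myoblasts and 9.57% and 16.4% in myotubes. The counts below are to be read against these shares. The share of all genes that were higher after depletion in myotubes is not given here, so counts of higher genes there are description only. Of 11 SR-related genes tested, 9 were lower and 0 higher in control myotubes, among them Tra2a (-0.91, SE 0.039), whose product binds purine-rich exon enhancers, and Pnn (-0.73, SE 0.04). After depletion 6 and 6 of them were lower in myoblasts and 3 and 4 in myotubes, and 0 were higher. Acin1, which encodes a subunit of the ASAP complex at exon junctions, changed by -0.18 and -0.51 in myoblasts (SE 0.037, adjusted p = 0.00411 and 6.39e-07) and by -0.08 and -0.16 in myotubes, and its stage difference of 0.23 passed (adjusted p = 0.00135). Of 23 hnRNP genes, whose products often oppose SR proteins at exons, 21 were lower and 1 higher in control myotubes, with Hnrnpa1 at -1.71 (SE 0.039); after depletion 4 and 13 were lower and 1 and 1 higher in myoblasts, and 5 and 7 were lower and 0 higher in myotubes.

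Of the 10 genes for SR protein kinases and their nuclear importer, 5 were higher and 4 lower in control myotubes, about the share of all genes (39.4% and 38.1%). Srpk3, the SRPK of muscle, rose by 7.65 on the log2 scale (SE 0.135), Clk1, which phosphorylates SR proteins in the nucleus, rose by 0.50 (SE 0.064), and Srpk1 fell by 0.73 (SE 0.051). After depletion in myoblasts, 1 of the 10 was higher and 1 lower with siRNA 1, and 2 were higher and 3 lower with siRNA 2. Over all genes, 11.6% and 17.1% were higher there, and 8.44% and 16.5% lower. In myotubes 0 were higher and 0 lower with siRNA 1, and 1 was higher and 1 lower with siRNA 2 (over all genes, 9.57% and 16.4% were lower). Srpk1 rose after depletion in myoblasts, by 0.23 with siRNA 1 (SE 0.041, adjusted p = 0.00201) and 0.33 with siRNA 2 (SE 0.041, adjusted p = 6.83e-05), and stood at 0.02 and 0.06 in myotubes; this stage difference passed (-0.24, SE 0.063, adjusted p = 0.00937). Of 15 genes of nonsense-mediated decay, including the exon junction complex, 13 were lower and 2, Upf2 and Smg6, higher in control myotubes, where 38.1% and 39.4% of all genes were. With siRNA 2, 8 of the 15 were lower in myoblasts and 7 in myotubes and 1 was higher in each, and with siRNA 1, 3 and 2 were lower and 1 and 0 higher (over all genes, 16.5% and 16.4% were lower with siRNA 2, and 8.44% and 9.57% with siRNA 1). Smg5, which acts in the decay of the targeted RNA, changed by -0.12 and -0.44 in myoblasts and by -0.11 and -0.29 in myotubes. The readers of the SETD2 mark that have been tied to splicing, Psip1 and Morf4l1, passed the test with neither siRNA in either stage (adjusted p of 0.0537 or more).

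The genes outside the family whose log2 CPM most resembled the average SR gene over the 18 libraries were Npm1 (Pearson's r = 0.9988), Eftud2 (0.9983) and Dhx15 (0.9982). These values describe likeness only, and most of the spread they follow is that between the stages.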

How the data were processed

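PolyA RNA of 18 libraries was analysed from 1 table per stage. Per the file headers, the deposited tables hold, for each transcript and library, an estimated count and a TPM value made by the authors. No source used here names the quantifier or its settings. Only mm10 and DESeq2 appear in the submitters' processing notes. Of 115088 transcripts, 114200 were matched to GENCODE M21; the 888 unmatched ones, 0.16% to 0.24% of counts, stayed out of the tests. Estimated counts were summed per gene, or kept per transcript, and rounded. Tests used edgeR 4.0.16 in R 4.3.3 (robust quasi-likelihood fit, TMM scaling, filterByExpr with a minimum count of 10, Benjamini-Hochberg adjustment over all features, threshold 0.05), with 9 libraries per stage for the depletion effects and all 18 for the differentiation and stage tests. SE is the absolute log2 change over the square root of F. The non-coding against coding balance was tested with edgeR's diffSpliceDGE on 2 summed rows per gene. Alternatives were limma 3.58.1 on log2(TPM + 0.1), DESeq2 1.42.0, other filters and scaling, the name prefix, a replicate block and each library left out. The edgeR steps were tested on simulated myoblast data with 2-fold changes. The gene-level depletion changes called in SR genes were smaller, and the simulation does not cover changes of that size.

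Members and lists were chosen with earlier results of these data known. All 10 genes are named; of transcripts, the leading coding and leading non-coding one per gene, and those called in the same direction with both siRNAs at 1 TPM or more; of other lists, up to 4 genes with the smallest p, and the 3 genes most alike. Srpk1, Srpk3, Clk1, Tra2a, Pnn, Acin1, Hnrnpa1, Smg5, Psip1 and Morf4l1 follow that rule; Upf2 and Smg6 were named for their count. Stage and table change together, so technical differences between the tables and the stage cannot be told apart. Transcript assignment error is not in the tables, and reads of near copies and antisense genes may be shared. Sequences are from GENCODE M21 transcripts; protein sequences were not used here.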

Additional observations from a re-analysis of the deposited data

Results flagged for a closer look

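The depletion change of Srsf5 differed between the stages by 0.169 on the log2 scale (edgeR over 18 libraries, SE 0.053, adjusted p = 0.0263). In myoblasts its changes were -0.06 and -0.26 with siRNA 1 and siRNA 2, and in myotubes 0.04 and -0.02. The difference lost its call without any of 7 of the 18 libraries (log2 0.144 to 0.168, adjusted p 0.0547 to 0.0948): myoblast controls 1 and 3, the third siRNA 2 myoblast library, myotube controls 1 and 2, and the third myotube library of each siRNA.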

How the results depend on the processing

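All 10 differentiation calls at gene level held in every alternative run. The counts of depletion calls moved more. With limma on TPM, gene calls were 7 for siRNA 1 in myoblasts (3 in edgeR), 6 for siRNA 1 (1) and 8 for siRNA 2 (2) in myotubes; transcript calls were 11 for siRNA 2 in myoblasts (7) and 6 in myotubes (1), and share calls 0 for siRNA 2 in myoblasts (1). The TPM scale itself moved the median of all genes by -0.06 and -0.04 in myoblasts and -0.06 and -0.10 in myotubes. A minimum count of 50 gave 11 and 2 of those transcript calls, and the prefix as covariate 12 transcript calls for siRNA 2 and 5 gene calls for siRNA 1 in myoblasts and 2 gene calls for siRNA 1 in myotubes, as did no filter; DESeq2 gave 1 gene call for siRNA 2 in myotubes. The share count for siRNA 2 in myoblasts was 0 with decay transcripts alone as non-coding, 2 with them counted as coding, and 2 with the gene-level F test. Leaving out each library in turn gave, for siRNA 1 in myoblasts, 2 to 6 gene and 1 to 3 transcript calls; for siRNA 1 in myotubes 0 to 4 gene and 0 to 1 transcript calls; for siRNA 2 in myotubes 1 to 2 gene and 0 to 1 transcript calls; and for the stage difference 0 to 1 gene calls. Libraries with the same number did not deviate together throughout (correlations -0.253 to 0.447 in myoblasts, -0.211 to 0.24 in myotubes), so the numbers do not pair them, while libraries that share a name prefix did; a replicate block gave 2 transcript calls for siRNA 1 in myoblasts and 0 for siRNA 2 in myotubes. The cause of these moves was not tested. No called value changed sign; 115 single values that passed neither time did. The smallest gene-level depletion change called was -0.106 on the log2 scale (Srsf3, siRNA 2, myoblasts). The size of change that 3 libraries per group could detect was not computed.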
